A study of Mus musculus with 6 samples.

Results

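Pulldowns of the long noncoding RNA (lncRNA) Tug1 from mouse podocytes recovered 113114 genomic regions, of which 500 were shared by both probe sets, lay inside a lncRNA gene and lay away from any protein-coding gene. They were found by joining peaks of 4 pulldown libraries that overlap by at least 1 bp. A joined region was kept if it lay on chromosomes 1 to 19, held a peak of at least 1 even-probe and at least 1 odd-probe library but not of all 4, and had its centre in a lncRNA gene span of the RefSeq mm10 annotation, outside protein-coding genes and more than 2 kb from every protein-coding gene end. Such regions are called even-odd lncRNA regions here. They were thus chosen by the presence of peaks in these libraries, which is given as a description, without a test. The same rule on peaks was met by 6.33% of all autosomal joined regions.

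The assay, chromatin isolation by RNA purification with sequencing (ChIRP-seq), pulls an RNA and the chromatin crosslinked to it out of a nuclear extract with biotinylated antisense oligonucleotides. Tug1 was tiled with 48 oligonucleotides, alternately assigned to an even or an odd set, each set served for 2 pulldowns, and 2 input DNA libraries entered only through the authors' peak calling. All 6 libraries came from the same kind of cells with no treatment listed, conditionally immortalized podocytes with a temperature-sensitive SV40 T antigen, at passages 10 to 12, grown at 33 degrees and differentiated for 10 days at 37 degrees. The labels do not tell whether replicates came from separate cultures, and their spread may therefore be technical. A control pulldown with probes for another RNA was not analysed here. Peak lists of DNA hold no expression values, so the cell type could not be checked against its markers, nor whether any host gene is transcribed in these cells. Peak lists also hold no read counts, so depth is unknown, no counting interval was formed, and a deeper library can yield more peaks.

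Genes for lncRNAs make transcripts that code for no protein. Many are enhancer-like or lie beside developmental regulators, some keep imprinted domains silent or active, and others serve mainly as hosts from which microRNAs or small nucleolar RNAs (snoRNAs) are cut. Tug1 itself is a nuclear and cytoplasmic lncRNA that has been studied in podocytes for its link to mitochondrial gene control. Podocytes are the epithelial cells of the glomerulus whose foot processes hold the kidney's filtration barrier.

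Of the 500 regions, 12 touched a promoter window of the RefSeq table (GRCm38.p6), which runs from 250 bp before to 50 bp after a start site. The table holds 32851 windows, 11311 of them of lncRNA genes, and the rule itself keeps the regions away from windows of protein-coding genes. How many other lncRNA regions touched a window was not counted. Among 372 even-odd regions with a listed host start site, 8 (2.15%) lay within 250 bp of it. Among 5022 lncRNA regions of 1 library, 82 (1.63%) did. At 6 host genes the region covered at least 150 bp of the 300 bp window of its own host. These windows are printed because they are the stretches of recovered DNA whose sequence could be read here. Each runs 5′ to 3′ on the strand of its gene, with the part inside the recovered region in capitals. The windows are Gm52805 at chr5:14905855-14906154 (plus strand), Gm30613 at chr5:15605070-15605369 (minus), Gm46074 at chr8:20649078-20649377 (plus), Gm35941 at chr9:63779961-63780260 (minus), Gm40778 at chr10:119411772-119412071 (minus) and Gm32990 at chr13:110568462-110568761 (plus).
Gm52805: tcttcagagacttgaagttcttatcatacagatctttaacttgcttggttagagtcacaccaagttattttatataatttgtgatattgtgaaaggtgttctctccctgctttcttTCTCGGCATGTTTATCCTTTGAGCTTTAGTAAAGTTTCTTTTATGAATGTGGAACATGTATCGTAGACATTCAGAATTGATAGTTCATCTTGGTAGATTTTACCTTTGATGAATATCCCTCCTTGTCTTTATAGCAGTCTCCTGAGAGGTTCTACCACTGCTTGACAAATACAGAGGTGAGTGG
Gm30613: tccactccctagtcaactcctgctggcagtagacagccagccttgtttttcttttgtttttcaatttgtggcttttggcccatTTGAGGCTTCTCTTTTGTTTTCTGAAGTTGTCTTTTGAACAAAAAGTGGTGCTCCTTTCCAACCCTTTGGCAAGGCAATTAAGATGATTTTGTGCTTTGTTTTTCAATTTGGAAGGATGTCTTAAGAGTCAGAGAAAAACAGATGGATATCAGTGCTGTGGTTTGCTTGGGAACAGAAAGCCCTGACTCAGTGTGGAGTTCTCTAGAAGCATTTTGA
Gm46074: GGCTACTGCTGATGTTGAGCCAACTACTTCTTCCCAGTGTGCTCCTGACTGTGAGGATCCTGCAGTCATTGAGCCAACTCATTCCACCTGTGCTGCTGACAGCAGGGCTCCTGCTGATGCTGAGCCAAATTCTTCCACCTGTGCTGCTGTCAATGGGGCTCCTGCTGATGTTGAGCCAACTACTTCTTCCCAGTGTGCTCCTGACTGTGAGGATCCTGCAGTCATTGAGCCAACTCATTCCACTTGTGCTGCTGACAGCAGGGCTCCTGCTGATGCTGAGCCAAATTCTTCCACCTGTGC
Gm35941: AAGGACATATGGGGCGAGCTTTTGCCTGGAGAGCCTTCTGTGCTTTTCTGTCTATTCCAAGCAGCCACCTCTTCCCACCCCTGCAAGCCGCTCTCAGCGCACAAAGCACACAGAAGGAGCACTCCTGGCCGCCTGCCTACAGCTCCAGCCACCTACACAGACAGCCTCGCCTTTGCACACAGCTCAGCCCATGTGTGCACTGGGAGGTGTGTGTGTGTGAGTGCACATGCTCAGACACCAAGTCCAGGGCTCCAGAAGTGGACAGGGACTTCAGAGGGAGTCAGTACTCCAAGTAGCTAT
Gm40778: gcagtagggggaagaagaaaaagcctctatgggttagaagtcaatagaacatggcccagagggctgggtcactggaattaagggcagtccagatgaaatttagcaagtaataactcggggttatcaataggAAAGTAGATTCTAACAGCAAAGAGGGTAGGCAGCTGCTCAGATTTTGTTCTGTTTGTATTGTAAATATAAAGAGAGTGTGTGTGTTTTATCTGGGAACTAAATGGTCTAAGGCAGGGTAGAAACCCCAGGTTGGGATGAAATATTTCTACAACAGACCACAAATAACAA
Gm32990: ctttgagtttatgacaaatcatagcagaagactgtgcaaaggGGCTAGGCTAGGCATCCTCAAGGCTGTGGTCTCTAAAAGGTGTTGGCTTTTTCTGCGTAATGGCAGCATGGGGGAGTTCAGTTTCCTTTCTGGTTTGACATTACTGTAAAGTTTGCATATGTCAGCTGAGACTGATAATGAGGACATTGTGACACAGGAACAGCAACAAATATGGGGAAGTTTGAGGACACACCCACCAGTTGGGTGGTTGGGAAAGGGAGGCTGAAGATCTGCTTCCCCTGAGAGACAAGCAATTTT

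The 6 windows were recovered by 2 or 3 libraries each. The region at Gm32990 had peaks of 3 libraries, with scores of 719.43 in odd replicate 2 and 3100 in both replicate 1 libraries, and it covered 258 bp of the window. Scores were assigned by the authors' peak caller on a scale that the files do not state, and 3100 is the value at which scores pile up. The region at Gm30613 had 3100 in even replicate 1, 254.85 in even replicate 2 and 3100 in odd replicate 1. Gm35941 and Gm40778 were recovered by even replicate 1 and odd replicate 2, with odd scores of 214.66 and 349.5. Gm52805 and Gm46074 were recovered by the replicate 2 libraries alone, with even scores of 84.93 and 71.96 and odd scores of 217.5 and 199.85. Those 2 windows and that of Gm30613 lay in crowded stretches, with 32, 58 and 46 joined regions per 100 kb.

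Short motifs were searched on both strands of the windows as a description. The letters TATAAA, the core of a TATA box, stood in 2 of the 12 touched windows, those of Gm52805 and Gm40778, against 13.6% of all promoter windows and 15.2% of those of lncRNA genes. GGGCGG, the core of an Sp1 site, stood in 1 (Gm30794), against 35.7% of all windows and 16.3% of lncRNA windows. CCAAT stood in 1 (Gm33162), against 37.4% and 35.8%. The repeat CACACACA stood in 2, Gm35941 and Gm40778, against 4.09% and 5.15%, and AGAGAGAG in 0, against 4.37% and 5.21%. The touched windows had a median GC content of 51.5% and 2.5 CG pairs, where all windows had 52.7% and 7, and lncRNA windows 48.3% and 4.

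Inside lncRNA genes the share of even-odd regions was close to that elsewhere. Of 7514 joined regions with their centre in a lncRNA gene under the rule, the 500 were 6.65%, beside the 6.33% of all 106100 autosomal joined regions. The share was 6.32% in protein-coding gene bodies, 7.67% within 2 kb of protein-coding ends and 6.06% in the remaining genome. Per Mb, lncRNA gene spans without protein-coding genes and the 2 kb around their ends held 3.02 even-odd regions. Protein-coding bodies more than 2 kb from such ends held 3.00 and the stretches near protein-coding ends 4.43. In the other direction, 7.45% of autosomal even-odd regions lay in lncRNA genes, beside 7.08% of all joined regions. By the number of libraries, lncRNA genes held 7.04% of regions of 1 library, 7.31% of 2, 7.20% of 3 and 9.80% of all 4. The 65 lncRNA regions of all 4 libraries and 25 even-odd regions within 2 kb of a protein-coding end are outside the 500.

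The libraries contributed unequally. Even replicate 1 had a peak in 438 of the 500 regions, even replicate 2 in 118, odd replicate 1 in 263 and odd replicate 2 in 336. A pair of libraries held 345 of the regions and 3 libraries held 155 (31%), beside 32.1% (1997) of the 6215 other even-odd regions. The most frequent combination was even replicate 1 with odd replicate 2, at 173 regions (34.6%), against 32.1% of the other even-odd regions. Even replicate 1 with odd replicate 1 gave 122 (24.4% against 24.2%), and those 2 with odd replicate 2 gave 87 (17.4% against 16.2%). Combinations with even replicate 2 were the rarer ones, from 38 regions with odd replicate 2 (7.6% against 7.10%) to 12 with odd replicate 1 (2.4% against 4.51%). In 315 regions the even and odd peaks included a pair of the same replicate number, which shared an input library. They were 7.40% of all autosomal even-odd regions with such a pair, beside 7.45% for the 500 among all even-odd regions.

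**Figure D1:**
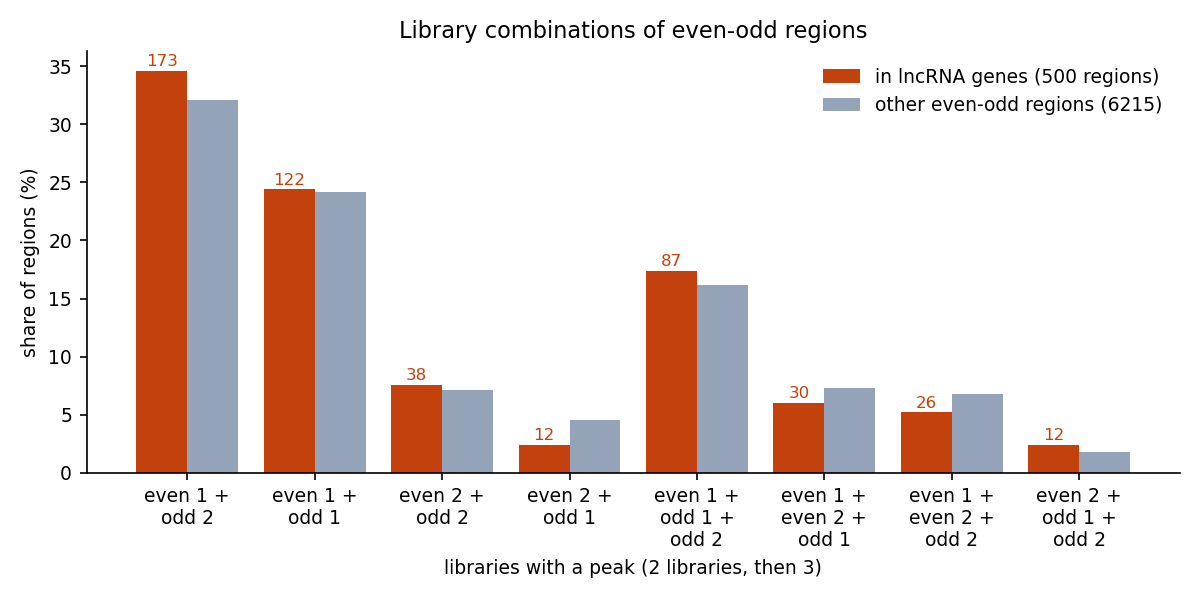
Share of regions (%, y axis) with each combination of libraries (x axis), for the 500 even-odd lncRNA regions (orange, counts above the bars) and the 6215 other autosomal even-odd regions (grey). The order of the combinations is nearly the same in both, led by even replicate 1 with odd replicate 2 at 34.6% and 32.1%.

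Median scores were close to those of other even-odd regions. In even replicate 2, where scores vary, the median was 287 in even-odd lncRNA regions and 277 in the others, the 55.7 and 52.9 percentiles of that list. In odd replicate 2 both medians were 299.03, the 69.7 percentile. In the replicate 1 lists the median was 3100 in both classes. At or above that value were 84.7% of even replicate 1 peaks in lncRNA regions and 86.6% in the others, and 100% and 99.7% of odd replicate 1 peaks. Over the 4 libraries the difference in median percentile was 0.72 ± 1.44 (SD, n = 4), higher in 1 library and tied in the other 3. With 3 ties an exact sign-flip test can return only p = 1, so this difference could not be tested.

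Peak widths were near those of other even-odd regions as well. Median widths in lncRNA regions were 415 and 392.5 bp in the even libraries (replicates 1 and 2) and 263 and 404.5 bp in the odd ones, against 416 and 416 bp and 268 and 401.5 bp elsewhere. The difference of -6.63 ± 11.7 bp (SD, n = 4) was negative in 3 of 4 libraries, with a two-sided exact sign-flip p of 0.375 (0.75 after Benjamini-Hochberg adjustment over 2 tests). Over 4 libraries that test cannot go below 0.13. The sign changed with the regions counted: the difference was positive, 9.5 bp, with regions of all 4 libraries kept. It was also positive, 1.33 to 10.7 bp, with any 1 library left out, where regions once in all 4 count as well. Dependence on a single library was thus not separated from that change of regions. Of all peaks of a library in lncRNA genes, 15.7%, 6.80%, 13.9% and 14.8% lay in even-odd regions, against 15.1%, 7.67%, 13.7% and 13.3% of its peaks in the other classes. These shares rest on the same presence of peaks that chose the regions and were not tested. Even replicate 2 was the library where the lncRNA share was the lower one.

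**Figure D2:**
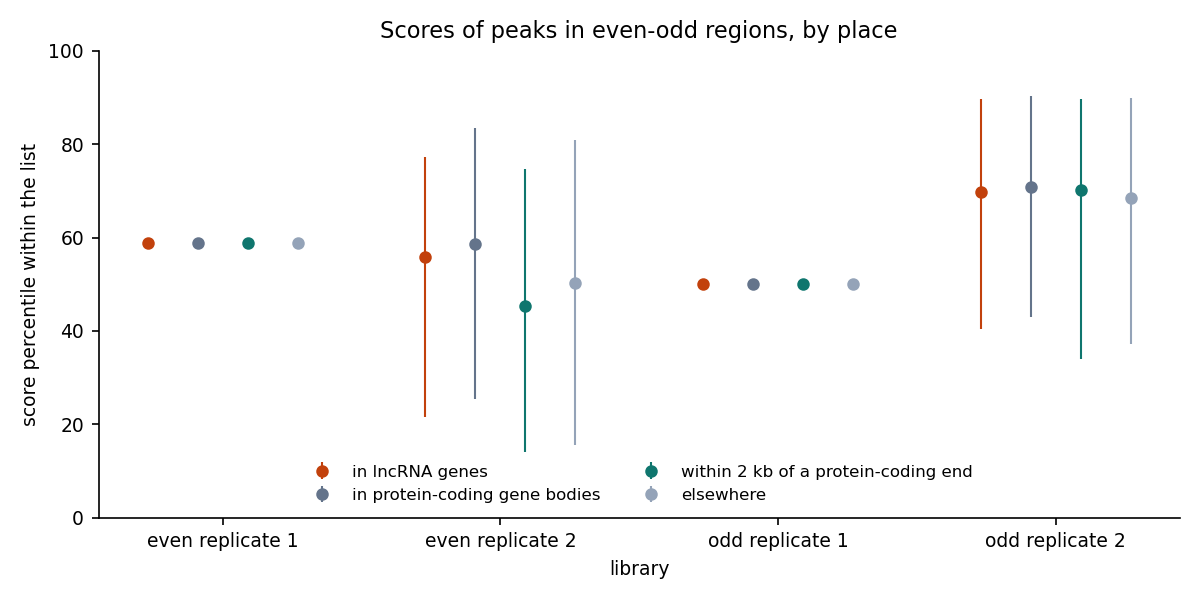
Within-list percentile of the authors' peak score (y axis, 0 to 100) in each library (x axis), for peaks of even-odd regions by where the region lies. Points are medians and lines run between the quartiles; in even replicate 1 and odd replicate 1 most scores share the value 3100, so median and quartiles coincide, and in the replicate 2 libraries the lines of the 4 classes overlap.

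Among even-odd lncRNA regions of 3 or 2 libraries and lncRNA regions of 1, those of 3 had the highest median scores in both lists where scores vary. Regions of all 4 libraries were not part of this comparison. In even replicate 2 the median was 308 in even-odd lncRNA regions of 3 libraries, 216 in those of 2 and 264 in lncRNA regions of that library alone. In odd replicate 2 it was 341, 281 and 215. The order ran with the number of libraries in odd replicate 2 but not in even replicate 2. The choice of members by shared peaks bears on these medians, so they are descriptions. A joined region is at least as wide as its widest peak. Even-odd lncRNA regions had a median width of 482 bp (213 to 1970), where regions of 1 library in lncRNA genes had 339 bp (200 to 1137).

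The 500 regions lay in 457 different lncRNA genes, 3.68% of the 12408 autosomal lncRNA genes of the annotation, while 5054 (40.7%) held a joined region of any kind. A single region was held by 422 hosts, 2 by 26 and 3 or more by 9, and 15 regions lay in overlapping hosts. All but 30 hosts carry provisional names of the Gm-number or Rik kind, for which no function is given here. Hosts were long, with a median of 33.2 kb (quartiles 14.1 and 75.3) against 8.39 kb (3.74 and 18.96) for all autosomal lncRNA genes. Of genes under 10 kb, 72 of 6942 (1.04%) held a region, and of genes of at least 300 kb, 17 of 26 (65.4%). Per Mb of full gene length the number was 2.31 in the shortest genes, between 2.13 and 2.41 in genes of 10 to 300 kb, and 3.26 in the longest. Snhg14 alone held 15 of the 40 regions of that last class, and without it the number was 2.25 per Mb. Full gene length includes stretches where the rule allows no region, so these values are not on the scale of the class values per Mb above.

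**Figure D3:**
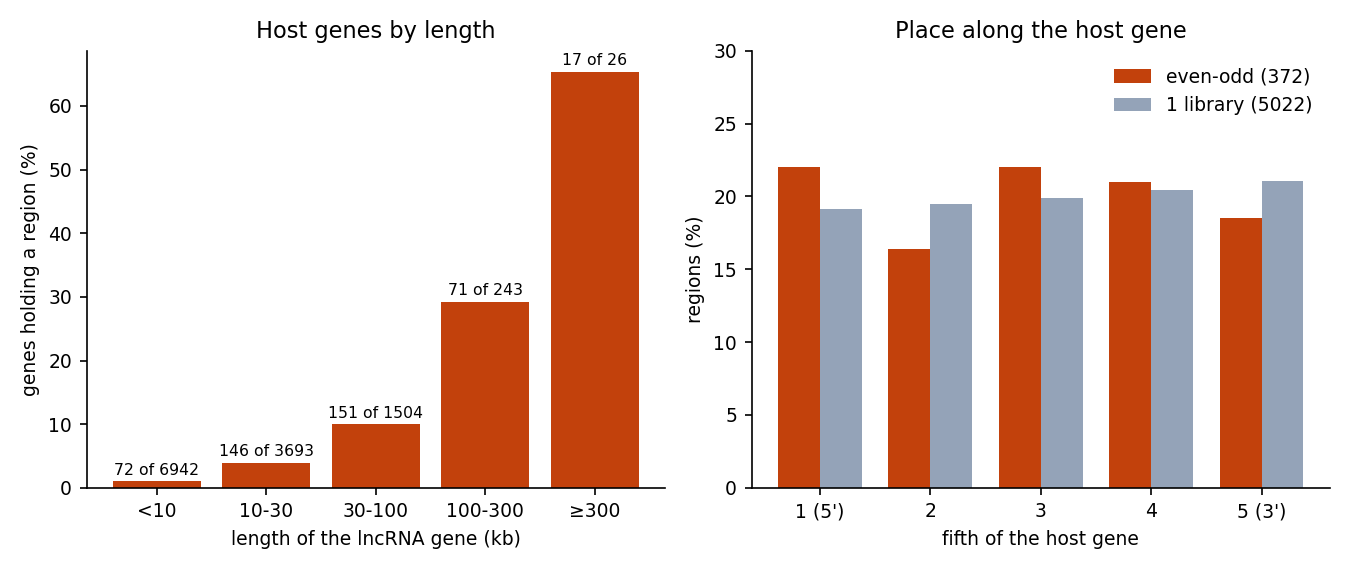
Left, share of autosomal lncRNA genes that hold an even-odd region (%, y axis) by gene length in kb (x axis), with the counts above the bars; it climbs from 1.04% to 65.4%. Right, share of regions (%, y axis) in 5 equal parts of the host gene from its 5′ to its 3′ end (x axis), for 372 even-odd regions (orange) and 5022 regions of 1 library (grey); no part holds more than 22.0% of the even-odd regions.

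Along their hosts the regions were spread from end to end. For 372 regions with a single host whose strand and start site are listed, the median distance from the start site was 12.8 kb, and 24 (6.45%) lay within 1 kb of it. Of 5022 lncRNA regions of 1 library, 303 (6.03%) did, with a median of 14.8 kb. Over 5 equal parts of the host from its 5′ to its 3′ end, the even-odd regions fell at 22.0%, 16.4%, 22.0%, 21.0% and 18.5%, and the regions of 1 library at 19.2%, 19.5%, 19.9%, 20.4% and 21.0%. The median distance to the nearest protein-coding gene end was 46.4 kb for even-odd regions and 61.4 kb for regions of 1 library, and 32.8% and 37.9% lay beyond 100 kb.

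Snhg14 held the most regions, 15 of the 500. This imprinted gene (gene ID 52480, chr7:59272737-60450177, minus strand) makes a very long transcript from the paternal chromosome, mainly in neurons, which runs antisense through Ube3a and from whose introns clusters of snoRNAs are cut. The RefSeq table places 206 snoRNA genes in it. A run of 66 genes of 93 to 94 bp, 15 of which carry a Snord116 name or synonym, spans 231 kb at chr7:59673461-59904848 with a median spacing of 2530 bp. A run of 132 genes of 78 to 79 bp spans 271 kb at chr7:59347681-59619095 with a spacing of 1871 bp. All 15 regions lay in these runs, 11 in the 93 to 94 bp run and 4 in the 78 to 79 bp run.

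Peaks of every kind were dense there. The 93 to 94 bp run held 70 joined regions, 3.03 per 10 kb, and the 78 to 79 bp run 30, 1.11 per 10 kb. The rest of the gene, 675 kb, held 14, 0.208 per 10 kb. All lncRNA gene spans without protein-coding genes and the 2 kb around their ends held 0.454 per 10 kb. No region outside the runs came from more than 1 library. Much of that rest could hold no even-odd lncRNA region by the rule, since protein-coding genes such as Snrpn and Ube3a cover 506 kb of Snhg14 and 12 of those 14 regions. How the authors treated reads that match several of these repeated genes is not stated, so counts at single copies are uncertain, and the part of such reads in this density was not tested.

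The runs differed in which libraries recovered them. In the 93 to 94 bp run, even replicate 2 had peaks in 56 of the 70 regions and even replicate 1 in 34, against 16 for odd replicate 2 and 1 for odd replicate 1. In the 78 to 79 bp run, odd replicate 2 led with 19 of 30, and even replicates 1 and 2 and odd replicate 1 had 7, 5 and 4. All 11 even-odd regions of the 93 to 94 bp run combined even replicate 2 with odd replicate 2, 7 of them with even replicate 1 as well, and odd replicate 1 was in none. All 4 of the 78 to 79 bp run had a peak of even replicate 1, 3 with odd replicate 2 and 1 with odd replicate 1. Snhg14 further held 17 regions of both even libraries alone, none of both odd libraries alone and 1 region of all 4, at chr7:59865458-59866728 beside Snord116l16.

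**Figure D4:**
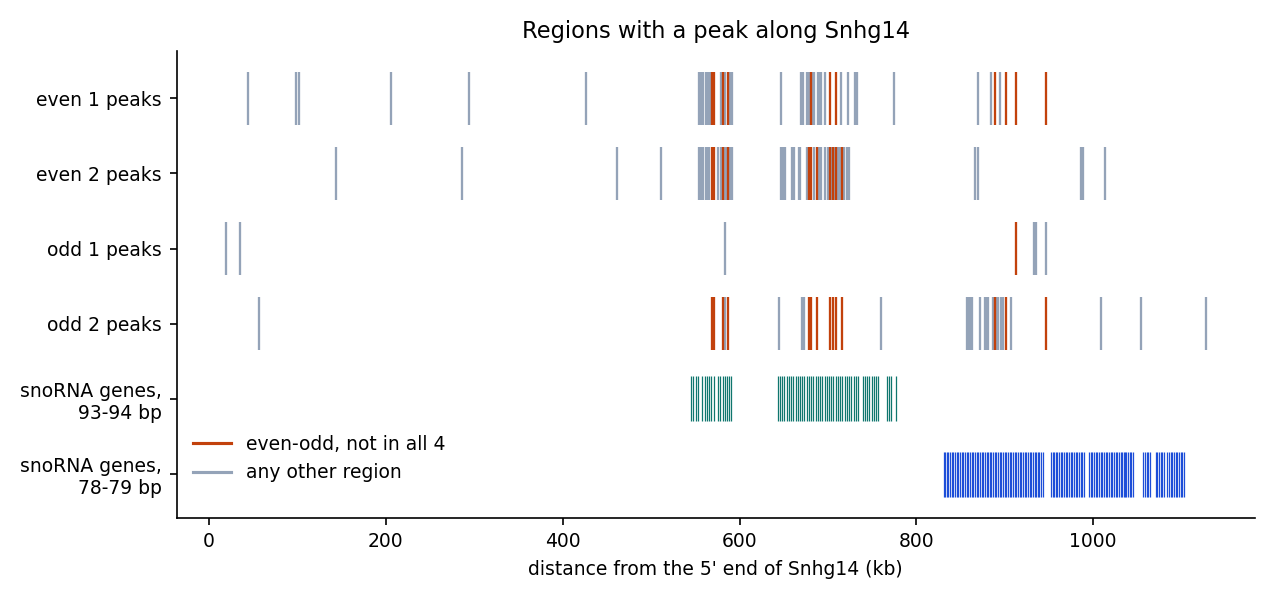
Joined regions with a peak in each pulldown (upper 4 rows) and snoRNA genes (lower 2 rows) by distance from the 5′ end of Snhg14 (kb, x axis). Orange marks the 15 even-odd regions, all within the snoRNA runs, and grey the other regions; even replicate 2 is densest over the 93 to 94 bp run and odd replicate 2 over the 78 to 79 bp run.

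Scores of the 15 even-odd regions of Snhg14 were mostly below the list medians where scores vary. In even replicate 2 the 11 regions scored 80.95 to 350.88 with a median of 151.62, and 2 reached the list median of 265.48. In odd replicate 2 the 14 regions scored 51.28 to 196.63 with a median of 74.77, and none reached the list median of 220.75. Over all regions of a run, the median peak scores in even and odd replicate 2 were 151.62 and 76.9 in the 93 to 94 bp run, and 237.95 and 210.2 in the 78 to 79 bp run, which is near the list medians. In even replicate 1, 9 of 11 scored at least 3100. The region with the highest replicate 2 scores together, chr7:59880659-59881281, had 3100 in even replicate 1, 350.88 in even replicate 2 and 194.71 in odd replicate 2, and lay 708 bp from Snord116l7. The widest, chr7:59768336-59770305, covered 1970 bp including the snoRNA gene Gm25210 and scored 2726.19, 188.17 and 64.85 in the same libraries. Of the 15, 7 overlapped a snoRNA gene. In the 93 to 94 bp run 4 of 11 did, beside 18 of all 70 joined regions there. In the 78 to 79 bp run 3 of 4 did, beside 22 of all 30. The median width of the 15 regions, 884 bp, compares with 482 bp over all 500.

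Other known lncRNA genes held fewer. Pvt1 (gene ID 19296, chr15:62037986-62260215), which lies beside the proto-oncogene Myc and contains enhancers of it, held 4 even-odd regions among 22. The one nearest to Myc, 93261 bp from its end at chr15:62083351-62083893, had peaks of 3 libraries with scores of 2687.65 in even replicate 1, 3100 in odd replicate 1 and 361.96 in odd replicate 2. The next, at chr15:62154579-62154892, scored 3100 in even and in odd replicate 1. The 2 farthest, at chr15:62177529-62177983 and chr15:62243588-62244064, paired even replicate 1 (3150.04 and 3100) with odd replicate 2 (138.95 and 318.03). None of the 4 was recovered by even replicate 2.

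Gm33655 on chromosome 4, 327 kb long, also held 4 of 21, at distances of 16674 bp from Trabd2b and 30176, 43734 and 103919 bp from Foxd2, a forkhead transcription factor gene used in kidney development. Each had even replicate 1 and 1 odd library. Gm19859 on chromosome 15 held 3 of 11 and Gm33228, near the RNA-binding protein gene Celf4, 3 of 22. 4930552P12Rik, near Vti1a, a gene of vesicle fusion, held 3 of 10. In the last of these, a region at chr19:55654590-55655323 was recovered by the replicate 2 libraries alone (even 363.9, odd 155.91). Both joined regions of Gm35252 were even-odd, and chr1:62947888-62948230 scored 3062.47 in even replicate 1 and 813.42 in odd replicate 2. Further hosts of 2 included Gm20755, Gm12648, Gm12718, Gm36134, Banf2os, D5Ertd615e and LOC100043315.

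The other 3 hosts of at least 3 regions lay in crowded stretches. Gm30613 and the neighbouring Gm30417 held 3 each on chromosome 5 beside Speer4d, a member of a multicopy gene family of the testis, with 45 to 53 joined regions per 100 kb. Gm40467, 10.2 kb long on chromosome 8, held 3 of its 5 regions as even-odd, all of 3 libraries, with 37 to 40 per 100 kb. Its regions scored 56.81 to 255.41 in even replicate 2 and 97.55 to 163.67 in odd replicate 2. In all, 31 of the 500 (6.2%), in 10 hosts, lay in windows of 100 kb with at least 15 joined regions, against 6.40% of other even-odd regions and 2.23% of all autosomal regions. Even replicate 2 had a peak in 22 of these 31 (71.0%) and in 96 of the other 469 (20.5%). The 22 include all 11 even-odd regions of the 93 to 94 bp run of Snhg14, so a single gene weighs heavily in that share.

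The other hosts described next held 1 even-odd region each. Morrbid, a regulator of the death gene Bcl2l11 in myeloid cells, had one at chr2:128360555-128361172 with scores of 2222.13 in even and 3100 in odd replicate 1. Nkx2-2os, beside the homeobox gene Nkx2-2, had one of 3 libraries at chr2:147210726-147211133 (3100, 3100 and 385.07 in even replicate 1, odd replicate 1 and odd replicate 2). Mir124-2hg, a host of the neuronal microRNA miR-124, had its sole region at chr3:17796206-17796619, where the odd replicate 2 score of 1158.48 was among the highest of the 500.

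Lncpint, a lncRNA induced by p53, had chr6:31111515-31112000 with an odd replicate 2 score of 151.78. Lockd, downstream of the cell cycle inhibitor gene Cdkn1b, had chr6:134949653-134950183 with 173.53, and it also held 1 region of all 4 libraries. Both odd scores were below the list median of 220.75, and both had 3100 in even replicate 1. Igf1os, antisense to the growth factor gene Igf1, had chr10:87849681-87849986, and Junos, beside the AP-1 gene Jun, chr4:95110998-95111714. Each of those 2 scored 3100 in even and in odd replicate 1.

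Irx3os, beside the homeobox gene Irx3, which is used in nephron segments, had chr8:91805885-91806571, 4574 bp from the end of Irx3 (3100 in even replicate 1 and 267.52 in odd replicate 2). Mannr, 55166 bp from Mecom, a zinc finger transcription factor gene, scored 237.12 in odd replicate 2, and Pldi, a testis lncRNA gene, 206.03. Plet1os scored 3100 in even and in odd replicate 1. BC039771, LOC102639337 and LOC108167736 had regions of 3 libraries with odd replicate 2 scores of 203.08, 533.63 and 465.3. LOC108167564, 11063 bp from Itgb1, the integrin beta chain gene by which podocytes attach to their basement membrane, scored 3100 in even replicate 1 and 660.76 in odd replicate 2.

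Among gene lists, 3 of 39 autosomal chromatin-associated or enhancer lncRNA genes held an even-odd region under the rule (Pvt1, Lncpint and Morrbid), 1 of 10 in imprinted domains (Snhg14) and 3 of 32 microRNA and snoRNA host genes (Mir124-2hg, Snhg14 and Snhg20), beside 3.68% of all autosomal lncRNA genes. A joined region of any kind was held by 25, 8 and 10 of them. The shares of the lists were not adjusted for gene length. Pvt1, Lncpint and Morrbid are 222, 125 and 131 kb long, and 29.2% of lncRNA genes of 100 to 300 kb held a region. Snhg14, which stands in 2 lists, is 1177 kb long, in the class where 65.4% did. Mir124-2hg and Snhg20 are short, at 10.2 and 2.17 kb. Kcnq1ot1, Airn and Meg3, which act in imprinted domains, had 2, 3 and 2 regions, and Mir100hg had 11, none of them even-odd. Tug1 had 3, all in all 4 libraries. Snhg20, a snoRNA host gene, had its sole region at chr11:117078339-117078693, 1733 bp from its start site and 1059 bp from the microRNA gene Mir6516, with 3100 in even replicate 1 and 437.29 in odd replicate 2.

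The 15 regions of 3 libraries with the highest mean percentile lay in hosts with Gm-number or Rik names, except that of LOC115488378. The first was in Gm31645 (chr17:74522382-74522804), 5661 bp from Birc6, with 3127.06 in even replicate 1, 3100 in odd replicate 1 and 527.55 in odd replicate 2. It came first because its even replicate 1 score is above the value of 3100 that most peaks of that list share, the 98.4 percentile against 58.8. Gm52033 (chr13:66720636-66721097) followed with 3100 in even replicate 1, 446.44 in even replicate 2 and 1318.45 in odd replicate 2. Gm40986, on the same chromosome, had 3100, 473.44 and 570.61 in those libraries. The nearest protein-coding gene to the region in Gm52033 was the zinc finger gene Zfp640, 40063 bp away.

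LOC115488378, which overlaps Gm3141, had the highest even replicate 2 score of the 500 (991.44), and Gm36560 the highest odd replicate 2 score (1610.27). That region of Gm36560 lay in a crowded stretch, with 17 joined regions per 100 kb. Gm36548, 70263 bp from the cell cycle kinase gene Cdk6, had 1008.42 in odd replicate 2 and 348.31 in even replicate 2. Gm11958, 21233 bp from the cytokine gene Lif, had 965.3 in odd replicate 2, and Gm52178, 32742 bp from Osr2, a zinc finger gene, 857.45. 1700123O12Rik had 1442.9, Gm32385 1281.66 and Gm33391 863.65 in that library. Gm15270, 85138 bp from Moxd1, lacked even replicate 1 and had 362.84 in even and 562.01 in odd replicate 2. Gm41135, Gm12648 and 9130221F21Rik had even replicate 2 scores of 758.57, 474.95 and 843.33. Each of these 15 regions had 3100 or more in every replicate 1 library that recovered it, which their choice by percentile favours. Over all even-odd lncRNA regions, 84.7% of even replicate 1 peaks and 100% of odd replicate 1 peaks did too.

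A peak of both replicate 2 libraries, where scores vary in even and in odd pulldowns, was found in 76 of the 500. Of these, 38 had those 2 libraries alone (7.6% of the 500, against 7.10% of other even-odd regions). Even replicate 1 was added in 26 (5.2% against 6.82%) and odd replicate 1 in 12 (2.4% against 1.83%). The best by the lower of both percentiles was in Gm29683 (chr7:70318892-70319104), 32948 bp from Nr2f2, a nuclear receptor gene, with 538.37 in even and 555.57 in odd replicate 2. That region, 213 bp wide, was the narrowest of the 500. Gm32881, 41843 bp from Rab3c, had 732.87 and 453.97, and I730028E13Rik, 230804 bp from the transcriptional corepressor gene Tle3, had 442.01 and 407.16. None of these 3 had a replicate 1 peak. Gm40986, Gm52033, LOC115488378 and Gm15270 were among the best 8 here too. Gm32647, at 1283.93 kb the longest host, had 359.47 in both.

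Genes of other kinds inside the hosts were overlapped by 16 regions. Besides the 7 snoRNA genes of Snhg14 these were 6 pseudogenes, the T cell receptor locus Tcra and 2 tRNA genes. The tRNA genes were n-TEctc10 in Gm39827 (chr11:58302030-58302374; 3100 in odd replicate 1, and 354.16 and 290.78 in the even and odd replicate 2 libraries) and n-TKctt28 in Gm32298 (chr13:21167950-21168260; 3100 in even and odd replicate 1). Among the microRNA genes matched to hosts here, the nearest apart from that of Snhg20 was Mir344 in A230057D06Rik. It lay 5251 bp from a region of 3 libraries (3100, 3100 and 516.89 in even replicate 1, odd replicate 1 and odd replicate 2). The microRNA of Mir124-2hg was not among those matched, so its distance is not given.

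At the 2 kb limit, the regions just kept were in Gm33067, 2027 bp from Gm1988, Gm38661, 2140 bp from the cholecystokinin gene Cck, and Gm30417, 2223 bp from Speer4d. Those just left out were in 4930471C04Rik, 1950 bp from Prss51, Gm32923, 1606 bp from Tenm3, and Gm15545, 1468 bp from Bcl2l12. On each side 1 of 3 came from 3 libraries, in Gm33067 among those kept and in 4930471C04Rik among those left out.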

How the data were processed

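DNA of 4 Tug1 pulldowns from podocytes was measured. Per the submitters' processing notes, Bowtie2 2.1.0 and the build mm10 were used for alignment. Each pulldown has 1 peak list, called against 1 input library of the same number per the file names; the 2 inputs themselves were not analysed here. Peak names start with MACS; its version, threshold and duplicate handling were not given in the sources used here, nor was the handling of reads with several matches. The authors deposited a score with each peak, which was used within each list alone, as medians and percentiles. A further deposited list for the whole series, of 130269 peaks, repeats the 4 lists and was not used.

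Peaks overlapping by at least 1 bp were joined; positions are 1-based. Genes came from the RefSeq table of GRCm38.p6, and strand, start sites and promoter sequences from RefSeq promoter windows, which matched 354 of 457 hosts. No genome sequence was used, so exons, introns and sequences of other regions are not given. Classes were compared over the 4 libraries with a two-sided exact sign-flip permutation test, adjusted by Benjamini-Hochberg over 2 tests; regions were not treated as replicates. Pulldowns of the same number share an input, which is the basis of the paired alternative.

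Named were the hosts of most regions (up to 15), the 15 regions of 3 libraries with the highest mean percentile, the 8 with the highest lower percentile in both replicate 2 lists, members of 3 gene lists, hosts with other than Gm or Rik names (up to 20), and the 3 regions on each side of the 2 kb limit. The regions, lists and rules were chosen with earlier results of these data known. Further hosts with a promoter window, an overlapped gene or a microRNA gene were named after their values were seen. In simulated lists of chromosome 4, the procedure recovered 100 of 100 planted regions and none (0) when none were planted. Simulated background peaks of different libraries were placed so that they could not overlap, and planted peaks were placed to meet the rule. Both results were thus fixed in advance. They check the code and do not measure overlap by chance in the real lists. Tools were pandas 2.3.3, numpy 2.4.6 and matplotlib 3.10.9 in Python 3.11.15.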

Additional observations from a re-analysis of the deposited data

How the results depend on the processing

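Of 66 values recomputed under 14 settings, 51 kept their direction and, for counts and shares, stayed within 1.5 times or 1 SD of the reported value, 7 moved and 8 reversed. The score difference kept its sign but was 0.038 without crowded stretches. The count of 500 regions stayed between 371 and 565 with a stricter overlap, peaks under the list median dropped, other distances to protein-coding ends, any overlap with a lncRNA gene or regions of all 4 libraries kept. It was 50 for hosts without Gm or Rik names. With the replicate block, an even and an odd peak of the same number, it was 315 in 292 hosts, and the score difference was -0.0563 and the width difference -11 bp. Leaving out 1 library gave 178 to 501 regions (178 without even replicate 1, 327 without odd replicate 2) in 161 to 463 hosts (161 without even replicate 1), and 7.17% to 8.08% of even-odd regions in lncRNA genes (8.08% without odd replicate 1). With a library out, regions once in all 4 count as well. The score difference was -1.29 with low-scoring peaks (under the list median) dropped and between -1.25 (without even replicate 1) and 1.73 with a library out. The width difference was 9.5 bp with regions of all 4 libraries kept and between 1.33 and 10.7 bp with any library out, where those regions count as well. Its exact permutation p was at the smallest possible value both at 9.5 bp and, with the opposite sign, at -11 bp with the replicate block. Neither difference thus had the same sign in all settings. Leaving out chromosomes 8, 15 and 19 (414 regions) or crowded stretches (469) was added after seeing the data. Read depth is unknown and limits every count of shared peaks.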
